A study of Drosophila melanogaster with 6 samples.

Results

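The proteasome is the large protease that breaks down proteins tagged with ubiquitin. Its core particle is a barrel of outer rings of alpha subunits, which gate the entry, and inner rings of beta subunits, some of which hold the active sites. The regulatory particle at its ends has a ring of Rpt ATPases, which unfold the substrate, and a set of Rpn subunits, which hold the particle together, bind ubiquitin and remove it. In *Drosophila melanogaster* many subunits have a paralog that is expressed mainly in the male germline. These isoforms appear during spermatogenesis, and the alpha ring isoform *Prosalpha6T* is known to be needed for the maturation of sperm.

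The list examined holds 46 genes, 14 testis paralogs, whose names end in T, T1, T2, R, R1 or R2, and 32 general subunits, the subunits used by all cells. They were chosen by name. Of the 46 genes, 39 had a probe set of their own, 13 of the 14 paralogs and 26 of the 32 general subunits, among 11983 genes with a probe set of their own in the whole series. All 39 passed the minimum level described next, which 7696 genes passed in all, and each was measured by 1 probe set. *Rpt6R*, *Prosalpha1*, *Prosbeta1*, *Rpt1*, *Rpt6*, *Rpn9* and *Rpn10* were not analysed here as single genes. *Prosbeta5*, *Prosbeta7*, *Rpn6*, *Rpn13* and *Rpn12R* were read by probe sets whose suffix marks probes shared by transcripts that can belong to different genes. *Prosalpha5*, *Prosalpha7* and *Rpt3R* were read by probe sets whose suffix marks several transcripts of the same gene.

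Testes of *Pof* mutant males (y1 w67c23; PofD119/PofD119, homozygous for 1 allele) were compared with testes of wild type males (y1 w67c23), the stock that shares the X chromosome markers. *Pof* encodes POF, a protein that binds chromosome 4. Each genotype had 3 biological replicates on Affymetrix *Drosophila* arrays, and each replicate pooled 60 testes of males 0 to 24 h old. The values are log2 levels made by the authors with RMA, from which genes below 6 in wild type were left out. The mutant arrays were then shifted by a constant each, to bring their mean over the kept genes to that of wild type. *Pof* itself had log2 levels of 10.36, 10.56 and 10.44 on the mutant arrays, against 12.98, 13.06 and 12.89 on the wild type arrays, a change of -2.52 (SE 0.096, limma adjusted p = 1.5e-04).

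The first principal component, with 58.9% of the variance, set replicate 2 of both genotypes against replicates 1 and 3. Markers of spermatids were strongly expressed (log2 of the level summed over the kept genes, 16.57 to 16.72 in the mutant and 16.61 to 16.67 in wild type), and 2 of 11 were lower in the mutant, *dj* and *Mst84Db*. For this and the counts below, 2.22% of all genes were called lower and 2.47% higher in the mutant. Of the markers of primary spermatocytes, 6 of 8 passed the minimum (sum of the 6, 11.35 to 11.70 in the mutant and 11.41 to 11.79 in wild type) and 0 were called. With the replicate number as a block in the fit, *mia* passed, with a change of 0.68 (adjusted p = 0.0286, and 0.115 without the block). Of 5 spermatogonial markers 4 had a probe set of their own and 2 passed the minimum (sum of both, 9.56 to 9.71 in the mutant and 9.49 to 9.84 in wild type), and *aub* was lower. Of 5 markers of cyst and hub cells 4 had a probe set of their own and 1 passed the minimum. The defining genes *bam*, *nos*, *aly*, *upd1* and *tj* were below 6. Other tissues were present too: 11 of 12 accessory gland genes (sum 16.70 to 17.04 in the mutant and 16.58 to 16.83 in wild type) and 5 of 9 muscle genes (sum 11.55 to 12.08 in the mutant and 11.36 to 12.48 in wild type) were kept, with 0 called. The rest of both lists had no probe set of their own. Of 9 fat body genes listed, 6 were measured and 3 kept, all lower in the mutant, with a median change of -1.60 (sum of the 3, 7.36 to 7.91 in the mutant and 8.98 to 9.91 in wild type). The minimum was set on wild type alone, so a gene below 6 there could not enter, whatever its mutant level. *Fbp1* and *Fbp2* averaged 5.46 and 5.76 in the mutant, below that minimum. *Yp1*, *Yp2* and *Yp3*, left out, were below 6 in both genotypes and slightly higher in the mutant (*Yp3*, 5.82 against 5.52). The part of these other tissues in the results below was not tested.

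Of the 39 proteasome genes, *Prosbeta5R1* was higher in *Pof* mutant testes, 0 were lower and 38 did not pass the test. Of all 7696 genes, 4.69% passed it, 2.47% higher and 2.22% lower in the mutant. The median log2 change of the 39 genes was -0.040, against 0.024 over all genes, whose quartiles were -0.13 and 0.16. In dissected testes, fewer cells of a type and less RNA per cell cannot be told apart. In the other 38 genes the difference between the genotypes did not exceed the spread between arrays by enough to pass, and 6 of the 39 had an unadjusted p under 0.05 in limma, against 18.5% of all genes. Mutant values were lower in all 3 pairs of arrays with the same number for 15 genes and higher for 12, against 24.4% and 29.5% of all genes.

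**Figure D1:**
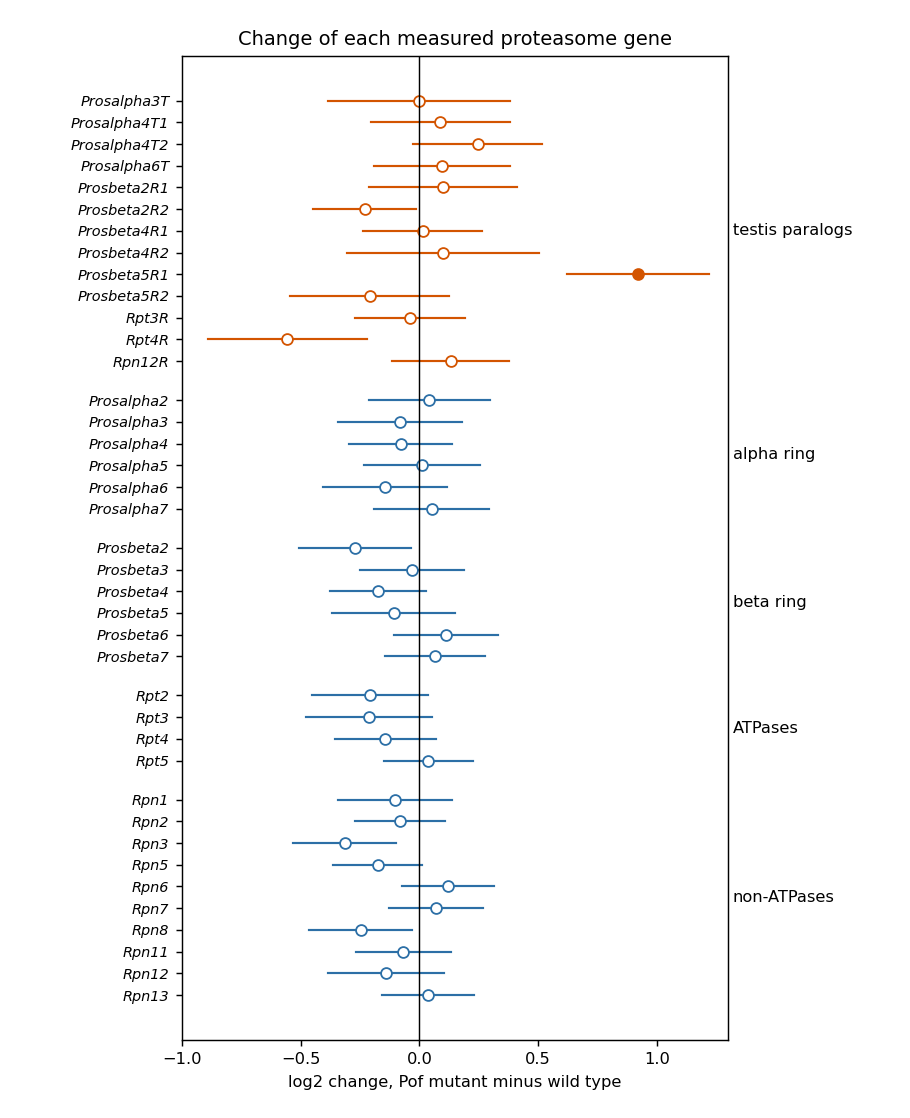
Log2 change, *Pof* mutant minus wild type, of the 39 measured proteasome genes, ordered by their place in the proteasome (points, limma estimates from 3 arrays per genotype; bars, 95% confidence intervals; orange, testis paralogs; blue, general subunits; filled, adjusted p under 0.05 over all 7696 genes). *Prosbeta5R1* at 0.92 is the 1 filled point, and *Rpt4R* at -0.56 lies farthest on the other side.

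*Prosbeta5R1* is a testis paralog of *Prosbeta5*, the beta subunit that carries the chymotrypsin-like activity of the core particle. Like *Pof*, it lies on chromosome arm 2R. Its log2 levels were 11.23, 11.43 and 11.27 on the *Pof* mutant arrays, against 10.33, 10.60 and 10.23 on the wild type arrays. Every mutant array lay above every wild type array, and the lowest mutant value exceeded the highest wild type value by more than the range within either genotype. The mutant had 189% of the wild type level, a change of 0.92 (SE 0.12, limma adjusted p = 0.011), and was higher in all 3 pairs. Without wild type replicate 1 it was 0.89 with an adjusted p = 0.0712, so the call was lost without that array.

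The other genes of the beta 5 position did not pass the test. *Prosbeta5*, the general subunit, had levels of 10.60, 10.91 and 10.83 in the mutant and 10.84, 10.87 and 10.95 in wild type, a change of -0.11 (SE 0.11, adjusted p = 0.672) with overlapping genotypes. *Prosbeta5R2*, the second paralog of the same subunit, lies on 2L and had levels of 9.17, 9.47 and 9.20 in the mutant and 9.38, 9.71 and 9.36 in wild type. Its change was -0.21 (SE 0.14, adjusted p = 0.497), lower in all 3 pairs and overlapping between the genotypes. The 95% confidence interval of *Prosbeta5R1*, 0.62 to 1.22, lay apart from those of *Prosbeta5* (-0.37 to 0.15) and *Prosbeta5R2* (-0.54 to 0.13).

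**Figure D2:**
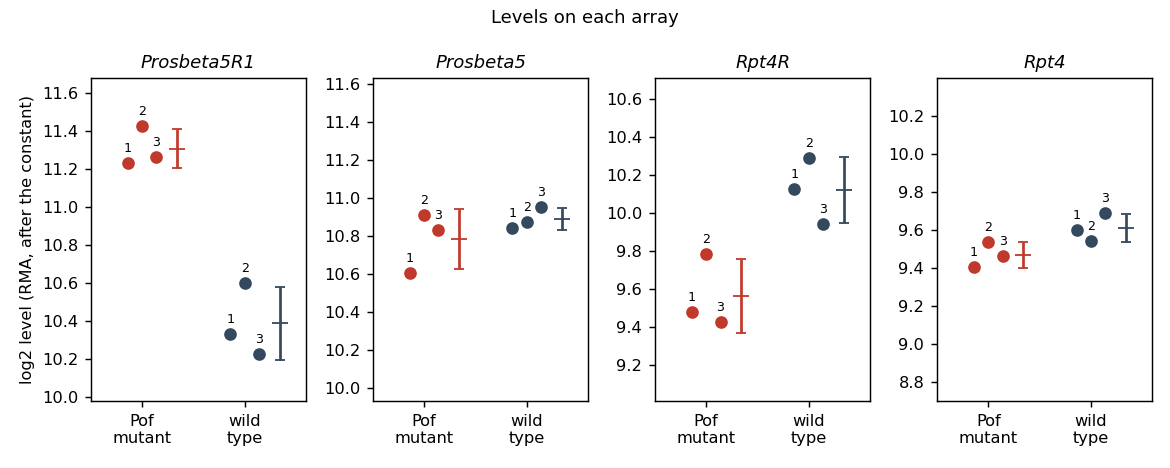
Log2 level (RMA, after the constant) of *Prosbeta5R1*, *Prosbeta5*, *Rpt4R* and *Rpt4* on each array (numbered points, replicates; horizontal line and bars, mean ± SD, n = 3 arrays per genotype); the axes have the same span and different positions, since levels of different probe sets are not comparable. The genotypes are apart for *Prosbeta5R1*, with the mutant higher, while *Prosbeta5* overlaps. Those of *Rpt4R* and *Rpt4* are apart with the mutant lower, but for both genes the gap is smaller than the range within either genotype.

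*Rpt4R*, a paralog of the ATPase *Rpt4* on 3L, had the lowest change of the 39 genes. Its log2 levels were 9.48, 9.79 and 9.43 in the mutant and 10.13, 10.29 and 9.95 in wild type. The mutant was below wild type throughout, with a gap smaller than the range within either genotype. The mutant had 68.0% of the wild type level, a change of -0.56 (SE 0.14) that did not pass the test (limma adjusted p = 0.0856). When the replicate number entered the fit as a block, it passed (adjusted p = 0.0149), as did 11.5% of all genes. The replicates of both genotypes spread in the same order for this gene, with replicate 2 highest and replicate 3 lowest. *Rpt4*, the general ATPase of the same position, had levels of 9.41, 9.54 and 9.46 in the mutant and 9.60, 9.54 and 9.69 in wild type. Its change was -0.14 (SE 0.088, adjusted p = 0.459).

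The other 11 measured paralogs had changes between -0.23 and 0.25, and none passed the test with or without the block. Among the isoforms of the alpha ring, which guards the entry to the core, *Prosalpha4T2* had levels of 10.19, 10.33 and 10.14 in the mutant and 10.04, 10.09 and 9.79 in wild type. All its mutant arrays were above wild type, with a change of 0.25 (SE 0.11, adjusted p = 0.314). *Prosalpha4T1*, the other paralog of *Prosalpha4*, changed by 0.089, also higher in all 3 pairs but with overlapping genotypes. *Prosalpha6T* had levels of 11.83, 11.97 and 11.93 in the mutant and 11.73, 12.03 and 11.68 in wild type, a change of 0.097 (SE 0.12, adjusted p = 0.731). *Prosalpha3T* had a change of -0.0014 (95% confidence interval -0.38 to 0.38), the smallest of the 39.

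Among the beta ring isoforms, *Prosbeta2R2*, a paralog of the subunit with trypsin-like activity, was the 1 paralog besides *Rpt4R* whose mutant arrays all lay below wild type. Its levels were 10.09, 10.21 and 10.09 in the mutant and 10.36, 10.45 and 10.27 in wild type, a change of -0.23 (SE 0.091, adjusted p = 0.243). *Prosbeta2R1*, the other isoform of that subunit, changed by 0.10 (SE 0.13, adjusted p = 0.746) and overlapped. The paralogs of *Prosbeta4*, a beta subunit without an active site, changed by 0.014 for *Prosbeta4R1* and 0.098 for *Prosbeta4R2*. *Prosbeta4R2* was the only member with a wild type mean below 7, at 6.50, 6.92 and 6.63 in the mutant and 6.74, 6.73 and 6.29 in wild type. In the regulatory particle, *Rpt3R* changed by -0.040 and *Rpn12R* by 0.13, higher in all 3 pairs, and both overlapped.

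The 13 paralogs together had a median change of 0.089 and a mean of 0.051, with 8 changes above 0 and 5 below. The mean depends on single paralogs. Without *Prosbeta5R1*, a choice made after its value was seen, the other 12 had a mean of -0.022 and a median of 0.052, which differ in sign. Without *Rpt4R* as well, again a choice made after its value was seen, the other 11 had a mean of 0.027 and a median of 0.089. All mutant arrays lay above wild type for 2 paralogs and below it for 2, against 13.4% and 11.2% of all genes.

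Of the 26 general subunits, 0 were higher and 0 lower in *Pof* mutant testes, with or without the block, and their adjusted p lay between 0.125 and 0.967. Their changes were small, with a median of -0.082, quartiles of -0.17 and 0.037 and a range of -0.31 to 0.12, and 17 lay below 0, against 45.5% of all genes. The standard errors were 0.078 to 0.11. No 95% confidence interval of a general subunit reached beyond -0.53 or 0.33. At an unadjusted p under 0.05 in limma, 3 of the 26 passed, against 18.5% of all genes.

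The genotypes did not overlap for 10 general subunits, 8 with the mutant below and 2 with the mutant above. Of all genes 24.6% did not overlap, 11.2% with the mutant below and 13.4% above. *Rpn3*, which encodes a structural subunit of the lid of the regulatory particle, had levels of 10.05, 10.19 and 9.999 in the mutant and 10.38, 10.45 and 10.36 in wild type. Its change of -0.31 (SE 0.090, limma adjusted p = 0.125) was the lowest among the general subunits. *Rpn8*, the partner of the deubiquitinase *Rpn11* in the lid, was at 10.33, 10.46 and 10.25 in the mutant and at 10.59 on each wild type array, a change of -0.25 (SE 0.090, adjusted p = 0.214). *Rpn11* itself changed by -0.068, lower in all 3 pairs, and its genotypes overlapped. *Rpn5*, another structural subunit of the lid, was at 10.93, 11.01 and 10.95 in the mutant and 11.14, 11.15 and 11.13 in wild type, a change of -0.18 (SE 0.078, adjusted p = 0.294).

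*Rpn2*, a large scaffold subunit of the base, was at 10.78, 10.81 and 10.84 in the mutant and 10.85, 10.93 and 10.89 in wild type, a change of -0.082 (SE 0.079, adjusted p = 0.661). *Rpn1*, the other large subunit of the base, which binds the shuttles that deliver substrates, changed by -0.10 and overlapped. The 2 subunits with the mutant above also belong to the lid. *Rpn6*, which bridges the regulatory and core particles in yeast, was at 12.08, 12.16 and 12.09 in the mutant and 12.02, 12.01 and 11.93 in wild type, a change of 0.12 (SE 0.081, adjusted p = 0.504). *Rpn7* was at 11.06, 11.20 and 11.12 in the mutant and 11.06, 11.06 and 11.05 in wild type, a change of 0.070 (SE 0.082, adjusted p = 0.721), with mutant replicate 1 level with wild type to the decimals shown. After the constant, the subunits of the lid thus did not all lie on the same side of wild type, and none passed the test. Without the constant the changes were 0.055 for *Rpn6* and 0.0048 for *Rpn7*. *Rpn12* changed by -0.14 and the ubiquitin receptor *Rpn13* by 0.037, both with overlap.

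In the ATPase ring, 3 of 4 general subunits had a lower mean in the mutant. *Rpt2* was at 9.84, 10.05 and 9.93 in the mutant and 10.27, 10.07 and 10.10 in wild type, a change of -0.21 (SE 0.10, adjusted p = 0.340), with the genotypes apart by less than the range within either. *Rpt3* was at 8.92, 9.13 and 9.04 in the mutant and 9.25, 9.09 and 9.38 in wild type, also -0.21 (SE 0.11, adjusted p = 0.380), and it overlapped, as did *Rpt5* at 0.037. The median of the 4 was -0.18, and that of the 10 measured Rpn subunits was -0.092.

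In the beta ring, *Prosbeta2*, the subunit with trypsin-like activity, was at 10.42, 10.66 and 10.50 in the mutant and 10.73, 10.83 and 10.84 in wild type. The mutant arrays lay below all wild type arrays, with a change of -0.27 (SE 0.098, adjusted p = 0.212). *Prosbeta4* was at 10.23, 10.29 and 10.18 in the mutant and 10.37, 10.37 and 10.48 in wild type, a change of -0.17 (SE 0.084, adjusted p = 0.338). *Prosbeta3*, at -0.030, *Prosbeta6*, at 0.11, and *Prosbeta7*, at 0.066, overlapped, and the median of the 6 measured beta subunits was -0.069. The alpha ring had the median closest to 0 of these 4 sets of general subunits, at -0.034. Its 6 measured members had changes of -0.14 to 0.052, all with overlap.

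Within the same arrays, each paralog was also set against the general subunit that it is named for, as the change of their log2 difference, a value that the constant does not touch. Of 13 such pairs 11 differences were higher in *Pof* mutant testes and 2 lower, with a median of 0.19. Of these genes only *Prosbeta5R1* passed the test on its own. All the general subunits in these pairs changed below 0 (-0.27 to -0.080), while 9 of the 26 general subunits changed above 0. The count of signs thus depends on which general subunits have a measured paralog. The pairs also moved together between arrays. On wild type replicate 2 every difference lay above its wild type mean, and on wild type replicate 3 every one lay below it. The 13 signs were thus not independent. Relative to wild type, the mean of the paralogs minus that of the general subunits was 0.14, 0.18 and 0.070 on the mutant arrays. On the wild type arrays it was 0.0050, 0.15 and -0.15, so the genotypes overlapped. No share over other pairs of genes was computed, for the signs or for the overlap. The genotypes did not overlap for 5 pairs. For *Prosbeta5R1* minus *Prosbeta5* the differences, relative to their wild type mean, were 1.13, 1.02 and 0.94 in the mutant, against -0.0079, 0.23 and -0.22 in wild type, a change of 1.03. For *Rpt4R* minus *Rpt4* they were -0.43, -0.26 and -0.54 in the mutant and 0.017, 0.24 and -0.26 in wild type, a change of -0.41. The gap between the genotypes was smaller than the range within either.

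*Prosbeta2R1* minus *Prosbeta2* stood at 0.37 on each mutant array and at 0.016, 0.19 and -0.20 on the wild type arrays, a change of 0.37. *Prosalpha4T2* minus *Prosalpha4* changed by 0.33 and *Prosalpha6T* minus *Prosalpha6* by 0.24, both with the mutant arrays above wild type. In these 3 pairs a small positive change of the paralog met a small negative one of the counterpart (*Prosbeta2* -0.27, *Prosalpha4* -0.080, *Prosalpha6* -0.14). The other 8 pairs overlapped, with changes between -0.10 for *Prosbeta5R2* and 0.27 for *Prosbeta4R2* and *Rpn12R*. Pairs that share a general subunit are not independent, and 3 general subunits of the beta ring and *Prosalpha4* account for 8 of the 13.

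**Figure D3:**
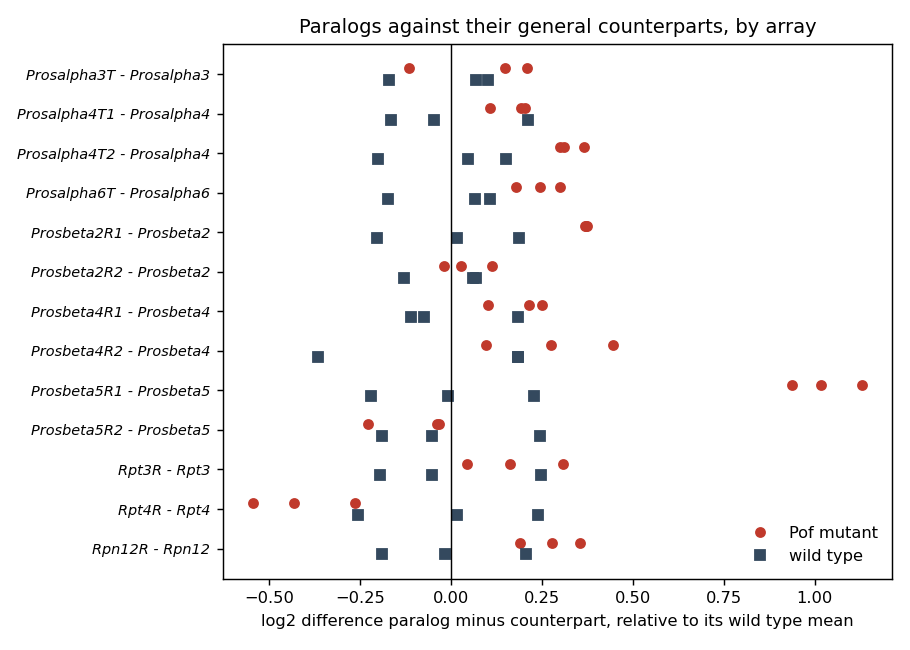
Log2 difference between each paralog and its general counterpart on each array, relative to the wild type mean of that difference (red circles, *Pof* mutant; dark squares, wild type; 3 arrays per genotype). The mutant circles for *Prosbeta5R1* lie between 0.94 and 1.13, and those for *Rpt4R* between -0.54 and -0.26, while the circles and squares of 8 pairs overlap.

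The paralogs and the general subunits were also set side by side in how they varied among arrays of 1 genotype, as a description with no test. Replicate 2 was the highest array in both genotypes for 12 of 13 paralogs and for 11 of 26 general subunits, against 48.4% of all genes. Wild type replicate 3 was the lowest of all 6 arrays for 8 of 13 paralogs and 4 of 26 general subunits, against 2086 of all 7696 genes. The SD between arrays, pooled over the genotypes, had a median of 0.150 for the paralogs, 0.0784 for the general subunits and 0.156 for all genes. Relative to the wild type mean, the paralogs averaged -0.016, 0.18 and -0.016 on the mutant arrays, against -0.021, 0.17 and -0.15 on the wild type arrays. The replicates thus differed by more than the genotypes, and the genotypes overlapped. Without *Prosbeta5R1* the other 12 averaged -0.088, 0.11 and -0.091 in the mutant, against -0.018, 0.17 and -0.15 in wild type, lower in the mutant on replicates 1 and 2 and higher on replicate 3. The general subunits averaged -0.16, 0.0057 and -0.086 on the mutant arrays, against -0.026, 0.020 and 0.0064 on the wild type arrays, so mutant replicate 2 lay within the wild type range and the genotypes overlapped.

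Of the other germline lists, 3 also had their highest mean on replicate 2 of both genotypes, and the spermatid markers did not. The 6 kept markers of primary spermatocytes averaged 7.5e-05, 0.21 and -0.15 in the mutant and -0.088, 0.25 and -0.16 in wild type. The 5 genes of the spermatid ubiquitin ligase, described next, averaged 0.042, 0.18 and 0.11 in the mutant and -0.0012, 0.15 and -0.15 in wild type. The 2 kept spermatogonial markers averaged -0.30, -0.082 and -0.22 in the mutant and -0.078, 0.20 and -0.12 in wild type. The 11 spermatid markers averaged -0.14, -0.033 and -0.022 in the mutant, highest on replicate 3, and -0.013, 0.053 and -0.040 in wild type. The pattern was not particular to germline lists. The regulators and assembly factors (0.022 in the mutant and 0.080 in wild type on replicate 2), the shuttles (0.084 and 0.084) and the general alpha ring (0.087 and 0.097) also had it. So did the general beta ring, the general Rpn subunits and the 1 kept cyst and hub marker. The ubiquitin genes, the general ATPases and the accessory gland, muscle and fat body lists did not. The part of any of these genes in the spread of the paralogs was not tested.

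**Figure D4:**
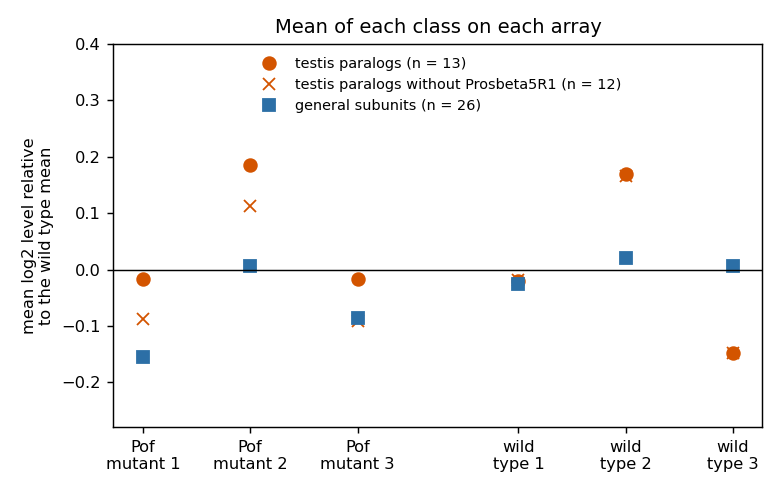
Mean log2 level of the 13 testis paralogs (circles), the 12 paralogs without *Prosbeta5R1* (crosses) and the 26 general subunits (squares) on each array, relative to their wild type mean. Replicate 2 of both genotypes carries the highest mean of the paralogs, at 0.18 in the mutant and 0.17 in wild type, and the general subunits stay between -0.16 and 0.020.

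Of 26 genes that work with the proteasome, 24 were measured and kept, and 0 were higher and 0 lower in *Pof* mutant testes, with a median change of 0.073. With the replicate number as a block 1 was higher and 1 lower, against 5.82% and 5.68% of all genes. *Ubi-p63E*, a polyubiquitin gene that is needed for male meiosis, was at 13.41, 13.50 and 13.54 in the mutant and 13.09, 13.18 and 13.08 in wild type. All mutant arrays were above wild type, and the change of 0.37 (SE 0.085) had an adjusted p = 0.0679, and 0.0399 with the block. *Pomp*, a chaperone for the assembly of the core particle, was at 8.73, 8.94 and 8.61 in the mutant and 9.03, 9.36 and 9.19 in wild type. All its mutant arrays were below wild type, and the change of -0.43 (SE 0.13) had an adjusted p = 0.142, and 0.0402 with the block. By list, the medians were 0.044 for 9 regulators and assembly factors, 0.073 for 4 ubiquitin genes, 0.066 for 6 shuttles and members of the TER94 complex, which pulls tagged proteins out of assemblies, and 0.11 for 5 genes of the Cul3 ubiquitin ligase of spermatids.

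No member lies on chromosome 4. The 39 genes are spread over 2L (8 genes, median change -0.11), 2R (9 genes, 0.037), 3L (6 genes, -0.12), 3R (12 genes, -0.016) and X (4 genes, -0.11), in the Release 6 assembly. The genotypes did not overlap for 2, 4, 2, 5 and 1 of them, in that order of arms, against 24.6% of all genes. The 2R group holds *Prosbeta5R1*, and the 3L group *Rpt4R*. *Pof* itself also lies on 2R. For genes of that arm, the loss of POF and a difference between the stocks that comes with the allele cannot be told apart.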

How the data were processed

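Total RNA of testes was hybridised to 6 Affymetrix *Drosophila* arrays, 3 per genotype. The authors made log2 values with RMA, which subtracts background, gives all arrays the same distribution and summarises each probe set, and deposited them; no source used here gives its version. Quantile normalization removes a change that most genes share. The 18952 deposited probe sets, with array medians of 5.78 to 5.88, were neither filtered nor shifted. The array's table gave 1 gene for 13647, several for 402 and none for 4903; only those with 1 gene were used, and 13544 matched a gene table of the Release 6 assembly. Coordinates are not printed, because no source used here gives the build of the array design.

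Following the methods of the study, only probe sets averaging at least 6 in wild type were kept (8028, averaged into 7696 genes) and constants of -0.017, 0.064 and 0.15 were added to mutant replicates 1, 2 and 3, set here on the mean log2 level. The test of each gene was two-sided, for mutant minus wild type, and used lmFit and eBayes of limma 3.58.1 under R 4.3.3. P-values were adjusted by Benjamini-Hochberg over the 7696 genes, with a threshold of 0.05, and the script was tested on simulated data. Figures used Python 3.11.15 and matplotlib 3.10.9. Precision is limited by having 3 arrays per genotype, with which the smallest p of an exact permutation test is 0.10.

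Deviations of arrays with the same replicate number correlated across genes at 0.40, 0.88 and 0.72 for replicates 1, 2 and 3. Mutant replicate 1 correlated more strongly with wild type replicate 3 (0.56) than with wild type replicate 1. Wild type replicate 1 likewise correlated more strongly with mutant replicate 3 (0.63). From the data alone, only replicate 2 thus had a clear partner. The numbers were treated as pairs, which for replicates 1 and 3 is an assumption. Results with the block and counts over the pairs rest on it. Values with the number as a block are given where the call of a printed gene or list changes. The alternatives varied the minimum, the constant, the choice of probe sets, the moderation, the block and the arrays. All members may be named; array values and test results are given for members past the threshold, without overlap of the genotypes, or among the 5 largest changes, and for others where they are compared with these; of partner genes, for those past the threshold. Members, gene lists and tests were chosen with earlier results of these data known.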

Additional observations from a re-analysis of the deposited data

How the results depend on the processing

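*Prosbeta5R1* was called under every alternative (log2 change 0.83 to 1.04) except without wild type replicate 1. The number of proteasome genes called was 1, and 2, with *Rpt4R* added, with trend and robust moderation (adjusted p = 0.0443) or with the replicate block; it was 0 to 1 with 1 array left out, where *Rpt4R* changed by -0.67 to -0.46 (adjusted p = 0.0775 to 0.282). The block changed no other call of a proteasome gene. Over all genes 361 were called, 885 with the replicate block and 137 to 403 with 1 array left out (137 without wild type replicate 1, and 164, 203 and 203 without mutant replicates 1, 2 and 3, and 403 and 200 without wild type replicates 2 and 3). The split of 190 higher and 171 lower was 107 and 168 without the constant, 150 and 203 with the constant on the linear scale and 212 and 175 with it on the median. Overlap of the genotypes for single genes was read after the constant and can differ without it.

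The mean of the general subunits, -0.078, was -0.14 without the constant and -0.12 to -0.040 with 1 array left out. That of the paralogs, 0.051, was -0.014 without the constant, -0.0029 with the constant on the linear scale and -0.030 to 0.15 with 1 array left out (-0.10 to 0.072 for the paralogs without *Prosbeta5R1*). The mean paralog minus counterpart difference, 0.20, was 0.10 to 0.29 with 1 array left out and 0.28 without both replicate 2 arrays.

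Changes near 0 turned their sign, none of them called. Without the constant *Prosalpha2* was -0.022, *Prosalpha5* -0.054, *Prosalpha7* -0.013, *Rpt5* -0.027, *Rpn13* -0.028 and *Prosbeta4R1* -0.051. With the constant on the linear scale they were -0.011, -0.043, -0.0021, -0.016, -0.017 and -0.039. With no minimum *Prosalpha5* was -0.031, *Rpt5* -0.0049, *Rpn13* -0.0055 and *Prosbeta4R1* -0.028, and with the minimum on the mean of all arrays *Prosalpha5* was -0.0055 and *Prosbeta4R1* -0.0023. *Prosalpha3T* was 0.0079 with a minimum of 7, which removes *Prosbeta4R2*, 0.0037 with the constant on the median and 0.027 without both replicate 2 arrays. With 1 array left out, the ranges across 0 were -0.012 to 0.12 for *Prosalpha2*, -0.055 to 0.075 for *Prosalpha5*, -0.00073 to 0.13 for *Prosalpha7*, -0.070 to 0.020 for *Prosbeta3*, -0.12 to 0.13 for *Prosalpha3T*, -0.038 to 0.0999 for *Prosbeta4R1*, -0.056 to 0.19 for *Prosbeta4R2* and -0.085 to 0.019 for *Rpt3R*.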

Other observations

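*Prosalpha1*, a subunit of the alpha ring, and its paralog *Prosalpha1R* are named together by 1 probe set, which therefore stands for neither alone and entered no comparison above. Its log2 levels were 12.13, 12.28 and 12.27 on the *Pof* mutant arrays, against 12.92, 13.08 and 12.89 on the wild type arrays, with the mutant below wild type throughout. In a limma fit over 9089 probe sets with those of several genes or none included, a choice made after the data were seen, the mutant had 60.1% of the wild type level, a change of -0.73 (SE 0.097, adjusted p = 0.00997). In that fit 2.27% of the probe sets were lower in the mutant. With 1 array left out the change was -0.78 to -0.66, with an adjusted p of 0.0221 to 0.0618, and it was past the threshold except without wild type replicate 1. Which of the genes carries this difference was not tested.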
